A study of Mus musculus with 9 samples.

Results

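The mitochondrial ribosomal protein genes were taken as the protein-coding genes of the GENCODE M21 mouse annotation whose symbols start with Mrpl or Mrps followed by a number. The rule found 78 of the 47937 gene identifiers counted, 49 named for the large ribosomal subunit (Mrpl) and 29 for the small subunit (Mrps), spread over 17 chromosomes. The 5 processed pseudogenes with matching symbols were not included. The study measured RNA in naive CD4+ T cells of C57BL/6 mouse spleen, purified on magnetic beads by CD4 and then CD62L, in 9 libraries that formed 3 groups of 3. TEPP-46 cells were held for 15 min with TEPP-46 and then activated on plates coated with antibodies to CD3 and CD28. TEPP-46 activates pyruvate kinase M2, an enzyme of the last step of glycolysis. As for its concentration, the labels give 50 to 100 µM without saying which library received which. Control cells were treated in the same way with the solvent DMSO. Resting cells were not activated, and the labels state neither whether they were cultured nor how long activation lasted. The libraries are numbered 1, 4 and 5 in each group. No label says that they came from separate mice, so p-values measure the spread between these libraries, which may be technical.

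Mitochondrial ribosomes translate the few messenger RNAs encoded in mitochondrial DNA, which specify core subunits of the oxidative phosphorylation complexes. Their ribosomal RNAs are made inside the organelle, while every protein subunit is encoded in the nucleus, made in the cytosol and imported. Naive T cells are known for small, quiet mitochondria, and activation through the T cell receptor is known to be accompanied by growth of the mitochondrial compartment and of its translation machinery.

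The 9 libraries held 2397304 to 5030643 counts each. The labelled cell type was checked against 6 T cell genes (Cd3d, Cd3e, Cd3g, Cd4, Cd28 and Trac), all of which were detected in every library, with summed levels of 4621 to 5886 CPM in TEPP-46 cells, 2260.1 to 3322 CPM in control cells and 2842 to 4848 CPM in resting cells. CPM are counts scaled to the same total in every library, after edgeR's scaling factors. Of these 6 genes, 2 were higher in TEPP-46 than in control cells at the edgeR threshold. The TEPP-46 libraries differed from each other more than the libraries of the other groups did. Platelet and red cell genes (Pf4, Ppbp, Itga2b, Hba-a1 and Hbb-bs) summed to 16.5, 269 and 83.1 CPM in TEPP-46 replicates 1, 4 and 5, against 0.960 to 4.91 CPM in control cells, where Pf4 and Ppbp were at 0, as were both globin genes in all TEPP-46 and control libraries. Both genes of that list that could be tested, Pf4 and Itga2b, were higher in TEPP-46 cells. B cell genes summed to 1193, 2483 and 1034 CPM in the TEPP-46 libraries and 454 to 779 CPM in control cells, with 5 of 7 higher in TEPP-46 cells, and to 3233 to 4344 CPM in resting cells. The 4 neutrophil genes were at 0 in all control libraries, summed to 0.825, 132 and 3.88 CPM in the TEPP-46 libraries and to 99.8 to 146 CPM in resting cells. Malat1, a nuclear RNA, stood at 2532, 12292 and 12824 CPM in TEPP-46 replicates 1, 4 and 5, against 2067 to 4120.4 CPM in control cells and 4373 to 8385 CPM in resting cells, where every library was above every control library. CD8 T cell genes summed to 3.88 to 22.2 CPM and NK cell genes to 0 to 11.5 CPM over the 9 libraries, and myeloid genes to 19.5 to 58.4 CPM. The part of these differences in the results below was not tested. The counts of calls and the medians over all tested mitoribosomal genes are given with and without TEPP-46 replicates 4 and 5. In bulk RNA, fewer cells of a type and less RNA per cell cannot be told apart.

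Of the 78 genes, 77 passed the filter on low counts. Mrpl53, a protein of the large subunit, had 1 count over the TEPP-46 libraries, 2 over the control libraries and 1 over the resting libraries, too few to compare. Summed over all 78 genes, mitoribosomal protein transcripts made up 0.407%, 0.263% and 0.294% of counts in TEPP-46 replicates 1, 4 and 5, against 0.481%, 0.429% and 0.438% in control cells and 0.317%, 0.355% and 0.354% in resting cells. The control libraries were all above the resting libraries, and the TEPP-46 libraries fell on both sides of the resting range. For the sums by subunit, genes were split by symbol, with Mrpl genes taken as large-subunit and Mrps genes as small-subunit. The small-subunit sums thus include Mrps18a and Mrps30, whose products sit in the large subunit, and Mrps36, assigned to another complex. On the scaled totals the large-subunit genes summed to 2863, 1724 and 1941 CPM in TEPP-46 cells, 2845, 2712 and 2735 CPM in control cells, and 2011, 2259 and 2264 CPM in resting cells. The small-subunit genes summed to 1502, 921 and 1137 CPM in TEPP-46 cells, 1619, 1448 and 1433 CPM in control cells, and 1196, 1404 and 1375 CPM in resting cells. TEPP-46 replicate 1 thus lay above the control range for the large subunit, while replicates 4 and 5 lay below every resting library for both subunits. Per kilobase of exon, the large-subunit sum was 2.06, 2.22 and 2.01 times the small-subunit sum in TEPP-46 cells, 2.06, 2.17 and 2.18 times in control cells and 2.05, 1.80 and 1.84 times in resting cells. The TEPP-46 libraries overlapped both other groups on this ratio, while every control library was above every resting library, with control replicate 1 and resting replicate 1 almost equal. Mrpl45 alone gave 127, 114 and 118 of the 1335, 1294 and 1314 CPM per kilobase of the large-subunit sum in control cells. In resting cells it gave 23.7, 22.3 and 28.6 of 973, 1074 and 1067. The ratio without Mrpl45 was not computed, so the separation cannot be read as a shift of the whole subunit.

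**Figure D1:**
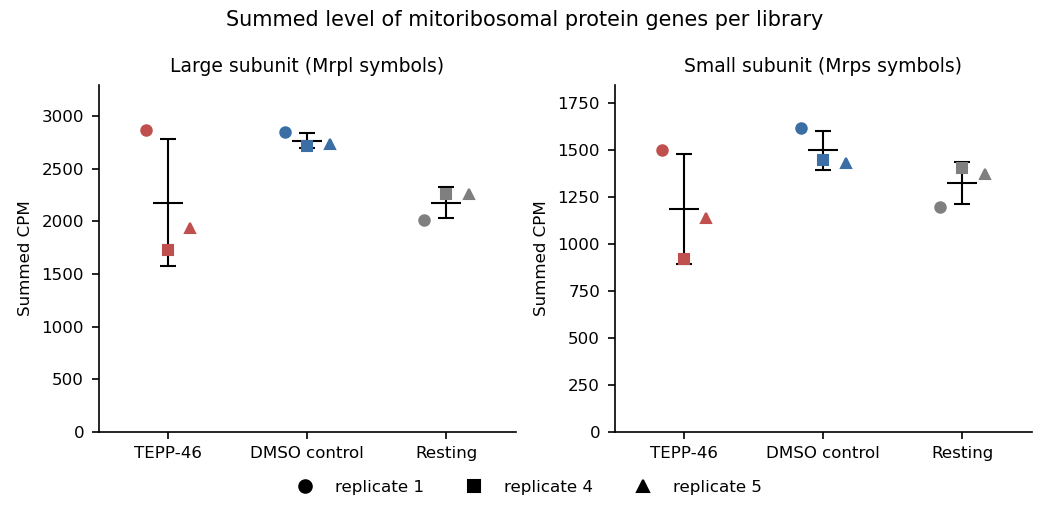
Summed CPM of the Mrpl genes (left) and the Mrps genes (right) in each library, with TEPP-46, DMSO control and resting cells along the horizontal axis; symbols mark the replicate number, and bars give the mean ± SD of 3 libraries. The TEPP-46 libraries span 1724 to 2863 CPM for the large subunit, against 2712 to 2845 CPM in control cells.

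Levels differed widely between the genes. Per kilobase of exon, averaged over the 9 libraries, the 77 genes tested ran from 3.13 to 89.5 CPM per kilobase, a 28.6-fold range, with a median of 18.5. The highest were Mrpl18, whose protein belongs to the 5S ribosomal RNA-binding L18 family, at 89.5 CPM per kilobase, Mrpl45, which lies at the exit of the nascent chain tunnel facing the inner membrane, at 64.3, and Mrpl28 at 57.6. The lowest were Mrpl33 at 3.13, Mrps35 at 3.53 and Mrpl13 at 3.72 CPM per kilobase. Mrpl18 had the highest mean level in each of the 3 groups. Mrpl45 was the gene with rank 4 in TEPP-46 cells, rank 2 in control cells and rank 26 in resting cells. The lengths are those of all annotated exons merged, which exceed any single transcript for genes with long alternative ends.

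Some mitoribosomal genes rose and others fell on activation without TEPP-46. Between control and resting cells, 7 of the genes rose and 3 of them fell. The threshold was a Benjamini-Hochberg adjusted p under 0.05 over all 12536 genes tested, in the quasi-likelihood test of edgeR. The 7 were Mrpl45, Mrps16, Mrpl1, Mrps10, Mrpl14, Mrps36 and Mrpl18, and the 3 were Mrpl49, Mrpl3 and Mrpl24. They made up 9.09% and 3.90% of the 77 genes, against a background of 15.5% of all genes tested that rose and 15.8% that fell. The libraries of the groups did not overlap for 26 genes that were higher in control cells and 8 that were lower, which is 33.8% and 10.4% of the genes, against 29.2% and 30% of all genes. The median log2 fold change was 0.13 over the 77 genes and -0.04 over all genes, with 45 genes above 0 and 32 below. With total counts in place of scaled totals, 12 genes rose and 1 fell, with 30.6% of all genes called in that fit and 31.2% in the reported one. Individual values ran from -0.87 to 2.27.

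Mrpl45 stood apart from all others. Its level was 329.9, 296 and 306 CPM in control replicates 1, 4 and 5, against 61.6, 57.8 and 74.2 CPM in resting cells. Every control library exceeded every resting library, and the means of 311 ± 17.4 and 64.5 ± 8.58 CPM (SD, n = 3 each) had a ratio of 4.81. The log2 fold change was 2.27 ± 0.34 (SE; edgeR adjusted p = 0.00132), and leaving out any of the 9 libraries in turn kept the call, with an edgeR adjusted p of at most 0.00863 and a log2 fold change between 2.19 and 2.37. Mrpl45 alone made up 7.39%, 7.11% and 7.34% of the summed mitoribosomal CPM in control cells, against 1.92%, 1.58% and 2.04% in resting cells. Without it the sums were 4134, 3864 and 3862 CPM in control cells and 3145, 3604 and 3565 CPM in resting cells, which still did not overlap. The gene lies at chr11:97315716-97329920 on the forward strand of GRCm38 and shares no exon with another annotated gene. Its promoter window, 250 bases before to 50 bases after the RefSeq start on GRCm38.p6 at chr11:97315466-97315765, is shown because this gene had the largest fold change. It holds no exact match to the 5 strings searched, and so has no capitals. These were GCGCATGC for NRF1, ACTTCCGG for ETS, AAGATGGC for YY1, CACGTG for the E-box and CCAAT for the CCAAT box. Variants of these strings, such as gcgcacgc in this window, were not searched.
Mrpl45: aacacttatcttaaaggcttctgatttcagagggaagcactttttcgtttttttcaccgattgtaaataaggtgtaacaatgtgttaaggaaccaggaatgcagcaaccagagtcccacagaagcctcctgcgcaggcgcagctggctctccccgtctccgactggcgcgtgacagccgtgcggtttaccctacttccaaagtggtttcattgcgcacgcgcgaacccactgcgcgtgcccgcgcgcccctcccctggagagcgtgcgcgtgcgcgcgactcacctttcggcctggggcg

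The other genes that rose on activation belong to both subunits. Mrps16, the counterpart of bacterial S16, stood at 60.3, 60.5 and 61.5 CPM in control cells and 23.9, 30.1 and 24.2 CPM in resting cells. Its log2 fold change was 1.22 ± 0.34 (SE; edgeR adjusted p = 0.0214). The control libraries of Mrps16 lay close together and above all resting libraries. Mrpl1, the counterpart of the L1 stalk protein, had 32.9, 33.1 and 37.8 CPM in control cells and 14.1, 19.0 and 13.8 CPM in resting cells (log2 fold change 1.15 ± 0.37 SE, edgeR adjusted p = 0.039). Mrps10, the counterpart of bacterial S10, had 97.6, 79.0 and 87.7 CPM in control cells and 43.2, 42.0 and 43.3 CPM in resting cells (log2 fold change 1.04 ± 0.26 SE, edgeR adjusted p = 0.0136). For both genes the groups were well separated. Mrpl14, the counterpart of a protein at the interface of the subunits, had 58.9, 62.2 and 54.4 CPM in control cells and 34.6, 29.6 and 27.5 CPM in resting cells (log2 fold change 0.94 ± 0.28 SE, edgeR adjusted p = 0.0274). Mrpl18 had 157, 174 and 177 CPM in control cells and 83.5, 103 and 111 CPM in resting cells (log2 fold change 0.78 ± 0.25 SE, edgeR adjusted p = 0.0357). Mrpl14 overlaps an exon of Tmem63b and Mrpl18 an exon of Tcp1, each on the opposite strand, and no source used here gives the strand setting of the counting, so reads of these pairs cannot be told apart. Mrps36, named for the small subunit, has since been assigned to the mitochondrial oxoglutarate dehydrogenase complex. It had 28.5, 30.2 and 30.2 CPM in control cells and 14.1, 18.5 and 16.7 CPM in resting cells (log2 fold change 0.85 ± 0.25 SE, edgeR adjusted p = 0.0267), without overlap, and its counts are uncertain because 3 pseudogenes carry its name. On GRCm38 the GENCODE annotation places Mrps16 at chr14:20389304-20393634 (reverse strand), Mrpl1 at chr5:96209493-96266727 (forward strand), Mrps10 at chr17:47368887-47381417 (forward strand), Mrpl14 at chr17:45686322-45698495 (forward strand), Mrpl18 at chr17:12911349-12916345 (reverse strand) and Mrps36 at chr13:100735955-100744659 (reverse strand).

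The 3 genes that fell encode large-subunit proteins. Mrpl49, a protein without a bacterial counterpart, had 15.9, 18.7 and 20.2 CPM in control cells and 31.0, 34.1 and 35.0 CPM in resting cells (log2 fold change -0.87 ± 0.26 SE, edgeR adjusted p = 0.0301). Mrpl3, the counterpart of bacterial L3, had 33.8, 31.2 and 26.7 CPM in control cells and 40.4, 54.1 and 55.2 CPM in resting cells (log2 fold change -0.70 ± 0.23 SE, edgeR adjusted p = 0.0403). Mrpl24, the counterpart of bacterial L24, had 41.2, 43.0 and 47.6 CPM in control cells and 70.6, 63.4 and 61.2 CPM in resting cells (log2 fold change -0.57 ± 0.19 SE, edgeR adjusted p = 0.0441). All control libraries were below all resting libraries for each of them. They lie on GRCm38 with Mrpl49 at chr19:6053622-6057785 (reverse strand), Mrpl3 at chr9:105053239-105079888 (forward strand) and Mrpl24 at chr3:87919506-87923672 (forward strand). These 3 genes overlap an exon of another annotated gene, Syvn1 for Mrpl49, Gm38077 and Gm47106 for Mrpl3, and Rrnad1 for Mrpl24, so part of their counts may be shared. Among the 45 genes that share no exon with another gene, 5 rose on activation and 0 fell, against 15.5% and 15.8% of all genes tested. These calls, apart from Mrpl45, rested on having 3 libraries a group. Leaving out 1 library gave 5, 2 and 2 called genes without resting replicates 1, 4 and 5, 1, 2 and 2 without control replicates 1, 4 and 5, and 17, 15 and 9 without TEPP-46 replicates 1, 4 and 5, which enter through the shared estimate of spread. The share of all genes called moved in these fits as well, between 17.9% and 40.3%. Mrps10 lost its call without resting replicate 4 or control replicate 1 (highest edgeR adjusted p = 0.0556), and the other 8 lost theirs in 5 to 7 of the 9 fits. With TEPP-46 replicates 4 and 5 both left out, 22 genes were called, 19 higher and 3 lower, the same 10 among them, while 45.9% of all genes were called.

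**Figure D2:**
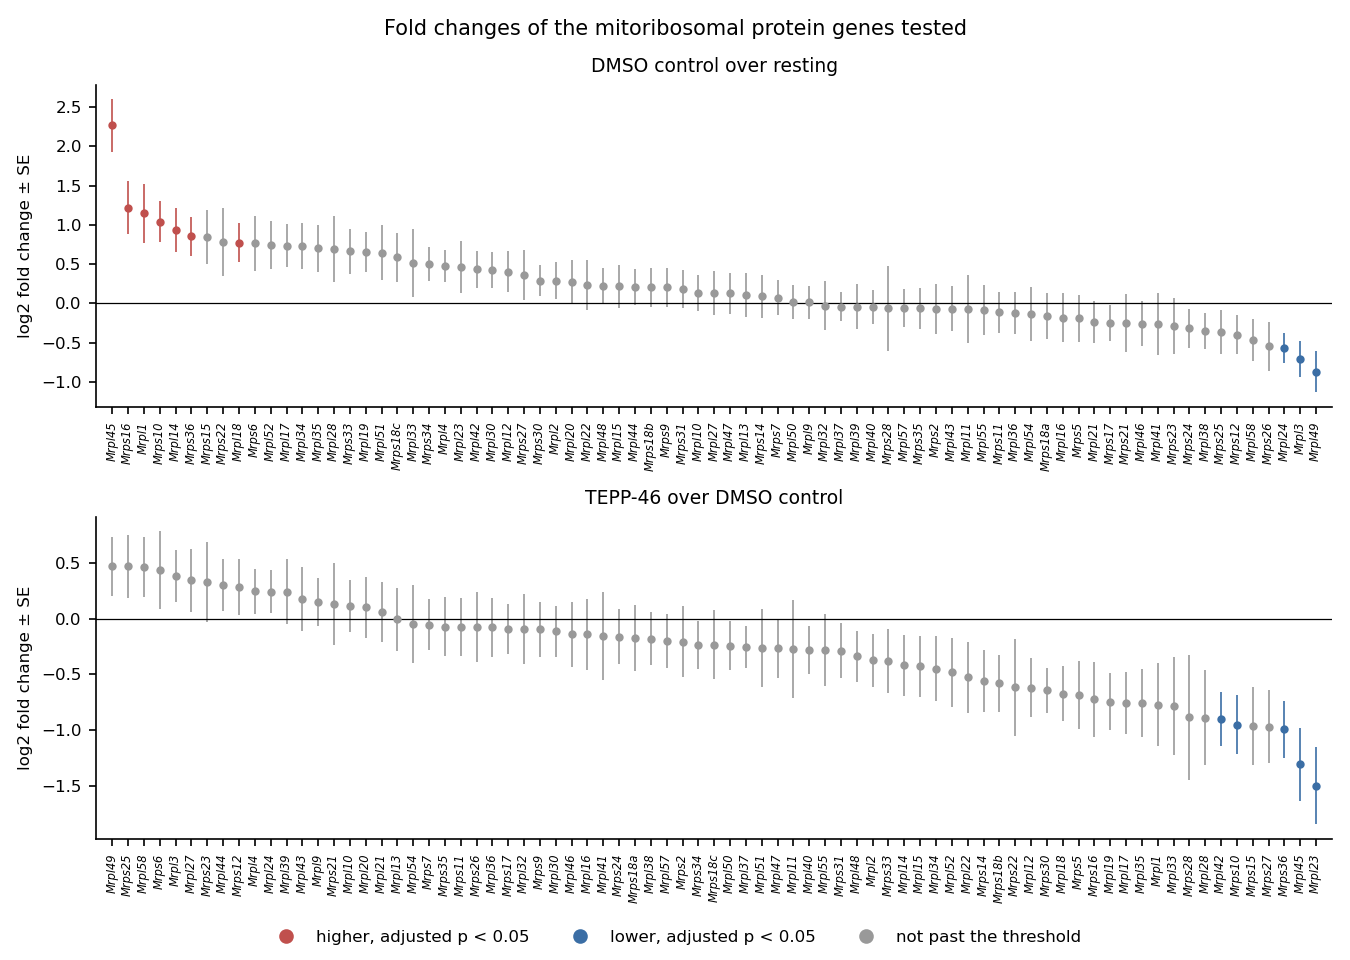
Log2 fold change ± SE of each of the 77 mitoribosomal protein genes tested, for DMSO control over resting cells (top) and TEPP-46 over DMSO control cells (bottom), in order of size; red marks higher and blue lower at an edgeR adjusted p below 0.05. In the top panel 7 genes are red and 3 are blue, with Mrpl45 at 2.27, and in the bottom panel 5 are blue.

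With TEPP-46, most mitoribosomal genes had lower point estimates than in control cells, and few passed the test. By edgeR, 5 genes fell and 0 rose, which is 6.49% of the 77 genes that fell, against 6.43% of all genes that fell and 9.72% that rose. At an unadjusted edgeR p below 0.05, no mitoribosomal gene was higher and 15 of the 77 were lower. Of all 12536 genes tested, 2355 were higher and 1881 lower at that p. The count of genes that rose was also 0 with DESeq2 and limma-voom, and 1 with limma-voom and library quality weights. The groups did not overlap for 2 genes that were higher in TEPP-46 cells and 20 that were lower, 2.60% and 26.0% of the genes, against 19.7% and 20.0% of all genes. The median log2 fold change was -0.23 over the 77 genes and 0.04 over all genes, with 18 genes above 0 and 59 below, but the median was 0.11 when TEPP-46 replicates 4 and 5 were left out, -0.49 without replicate 1 and -0.08 without replicate 4. This comparison and that of control with resting cells use the same 3 control libraries, so their fold changes are not independent.

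The lower levels were mainly those of replicates 4 and 5. Against all 3 control libraries at once, TEPP-46 replicate 1 was lower for 21 of the 77 genes, replicate 4 for 64 and replicate 5 for 50, or 27.3%, 83.1% and 64.9%, against 38.4%, 44.1% and 39.8% of all genes tested. Replicate 1 was above all controls for 38 genes, replicate 4 for 5 and replicate 5 for 17. The median log2 difference from the control mean was 0.10, -0.68 and -0.35 in replicates 1, 4 and 5, while that of all genes was -6e-04, -0.03 and 0.04. Replicate 1 was the highest of the 3 TEPP-46 libraries for 68 of the 77 genes, and replicate 4 the lowest for 56. The shares of all genes above all controls, and highest or lowest in each library, were not computed. Those counts therefore describe the mitoribosomal genes without a background. The heat map of levels relative to the control mean shows these columns side by side. Between libraries of a group, the median SD of log2 CPM over the 77 genes was 0.49 in TEPP-46 cells, 0.13 in control cells and 0.21 in resting cells, beside 0.52, 0.20 and 0.31 over all genes.

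**Figure D3:**
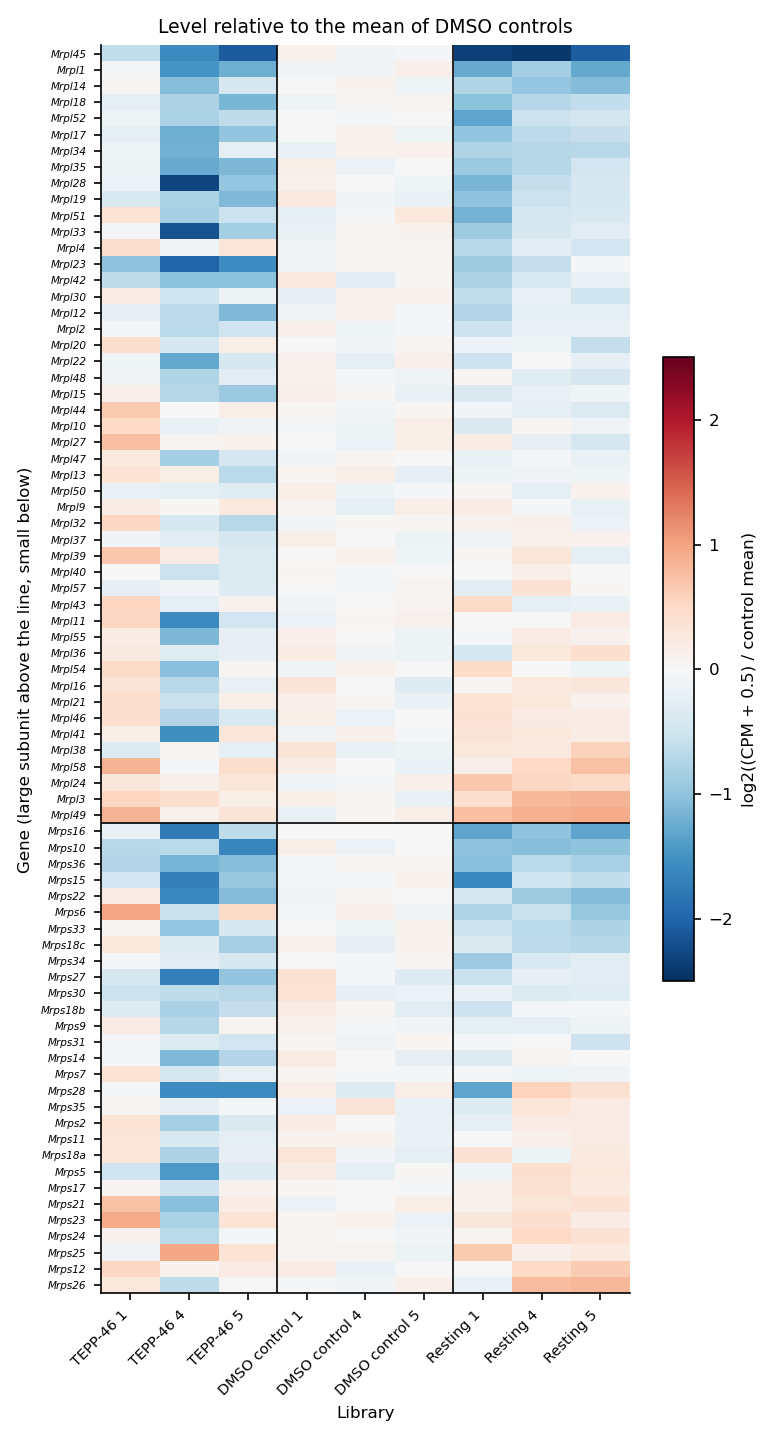
Level of each tested gene (rows, large subunit above the line, small subunit below, split by symbol) in each library (columns), as log2 of CPM plus 0.5 relative to the mean of the DMSO control libraries. Blue is lower and red higher. The TEPP-46 replicate 4 column is blue for most genes, with a median of -0.68, and the TEPP-46 replicate 1 column has a median of 0.10.

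Of the 5 genes that fell with TEPP-46, 3 encode large-subunit proteins. Mrpl23, the counterpart of bacterial L23 at the rim of the tunnel exit, had 12.9, 6.30 and 8.74 CPM in TEPP-46 replicates 1, 4 and 5, against 25.0, 27.1 and 27.7 CPM in control cells. Every TEPP-46 library was below every control library, and the log2 fold change was -1.50 ± 0.35 (SE; edgeR adjusted p = 0.020). A processed pseudogene carries its name, so its counts are uncertain. Mrpl45 had 201, 103 and 72.8 CPM in TEPP-46 cells, against 329.9, 296 and 306 CPM in control cells, with a log2 fold change of -1.30 ± 0.33 (SE; edgeR adjusted p = 0.0256). The TEPP-46 libraries of Mrpl45 lay between 72.8 and 201 CPM, below all control libraries and in part within the resting range of 57.8 to 74.2 CPM, and the gene made up 4.61%, 3.89% and 2.36% of the summed mitoribosomal CPM. Without Mrpl45 the sums were 4164, 2542 and 3005 CPM in TEPP-46 cells and 4134, 3864 and 3862 CPM in control cells. Mrpl42, a protein without a bacterial counterpart, had 67.4, 51.3 and 50.8 CPM in TEPP-46 cells and 124, 86.4 and 106 CPM in control cells (log2 fold change -0.90 ± 0.24 SE, edgeR adjusted p = 0.0308), again without overlap. On GRCm38 the annotation has Mrpl23 at chr7:142532686-142540747 (forward strand) and Mrpl42 at chr10:95480805-95501940 (reverse strand).

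The other 2 carry small-subunit names. Mrps36 had 17.6, 13.0 and 13.9 CPM in TEPP-46 cells and 28.5, 30.2 and 30.2 CPM in control cells (log2 fold change -0.99 ± 0.26 SE, edgeR adjusted p = 0.0283). Mrps10 had 53.9, 55.0 and 28.1 CPM in TEPP-46 cells and 97.6, 79.0 and 87.7 CPM in control cells (log2 fold change -0.95 ± 0.26 SE, edgeR adjusted p = 0.0356). All TEPP-46 libraries were below all control libraries for both genes, as they were for the 3 large-subunit genes. None of these 5 genes shares an exon with another annotated gene. The calls depended on single libraries. The count was 0 without control replicate 1, 4 or 5 and without TEPP-46 replicate 5, 3 without TEPP-46 replicate 4, 22 without TEPP-46 replicate 1 (all lower), 3 without resting replicate 4, 7 without resting replicate 1 and 4 without resting replicate 5. The share of all genes called moved as well, between 3.05% and 33.9% in these fits. Each of the 5 genes lost its call in 4 to 6 of the 9 fits, with a highest edgeR adjusted p of 0.0786 for Mrpl23, 0.0866 for Mrpl45, 0.121 for Mrpl42, 0.104 for Mrps36 and 0.124 for Mrps10. With TEPP-46 replicates 4 and 5 both left out, the log2 fold change of Mrpl45 was -0.62. That fit holds TEPP-46 replicate 1 alone, so its calls cannot show whether the falls were absent.

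**Figure D4:**
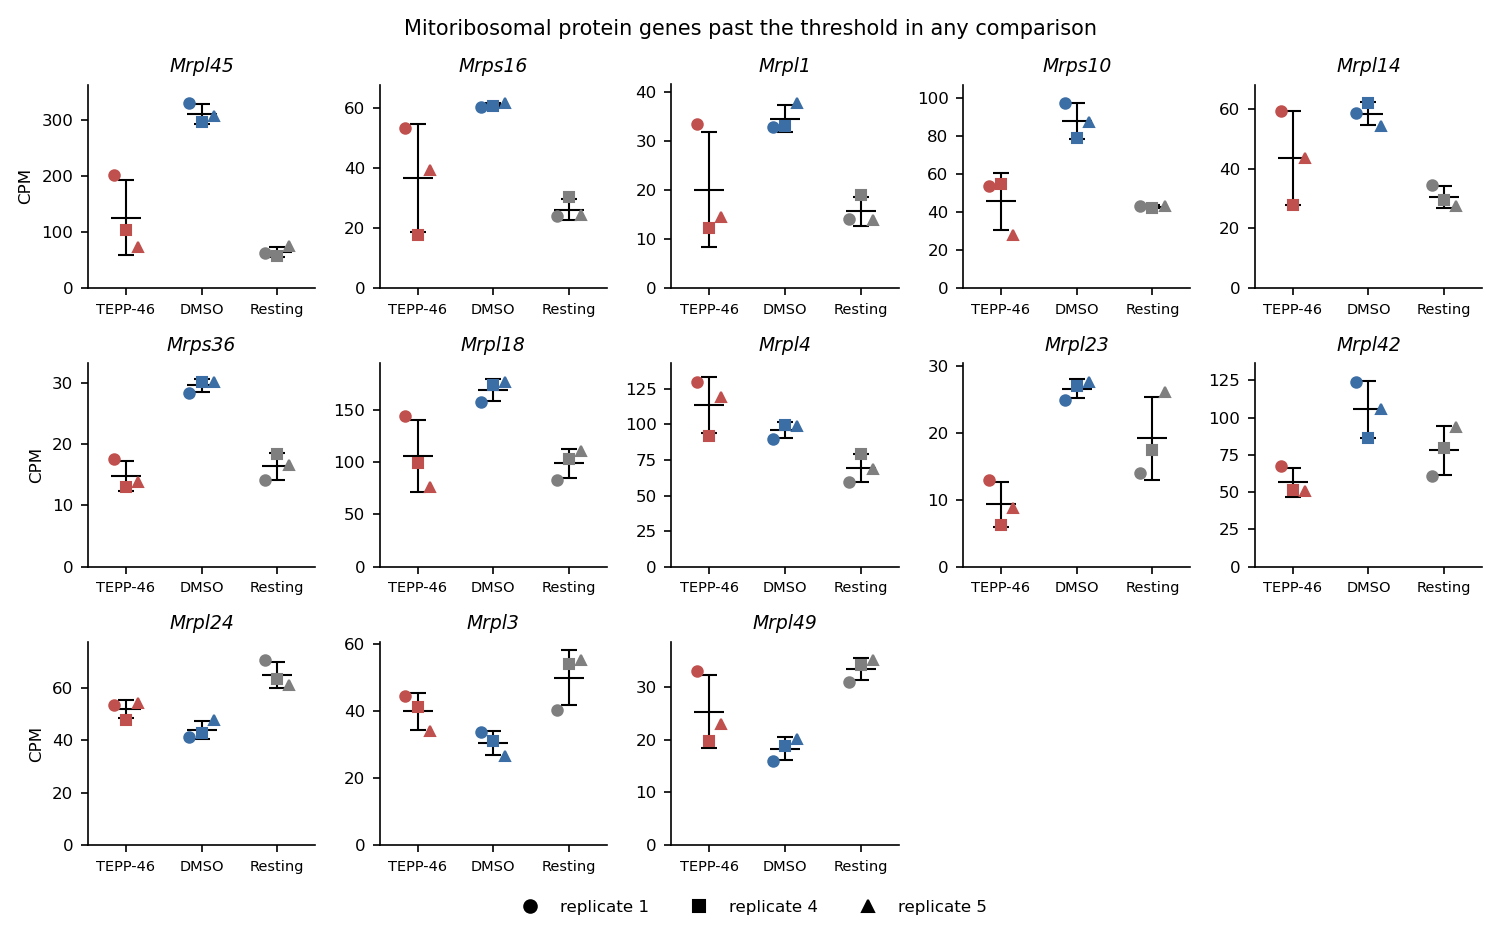
CPM per library (vertical axes start at 0) of the 13 genes past the threshold in any comparison, with TEPP-46, DMSO control and resting cells along each horizontal axis; symbols mark the replicate number and bars the mean ± SD of 3 libraries. Mrpl45 sits at 72.8 to 201 CPM in TEPP-46 cells, 296 to 329.9 CPM in control cells and 57.8 to 74.2 CPM in resting cells.

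In TEPP-46 against resting cells, Mrpl4 was the single gene past the threshold. Mrpl4, the counterpart of bacterial L4 in the tunnel wall, had 130.1, 92.0 and 119 CPM in TEPP-46 cells and 59.3, 79.2 and 68.8 CPM in resting cells, without overlap (log2 fold change 0.72 ± 0.20 SE, edgeR adjusted p = 0.0499). The gene is Mrpl4 at chr9:21002738-21008839 (forward strand) on GRCm38. Its control level was 89.8, 99.8 and 98.6 CPM. The call was lost in 8 of the 9 fits that left out 1 library, the exception being the fit without TEPP-46 replicate 4. That is 1.30% of the 77 genes, against 6.37% of all genes that rose and 3.92% that fell. By edgeR 0 mitoribosomal genes fell. At an unadjusted edgeR p below 0.05, 3 were higher and 3 lower, against 1826 higher and 1465 lower of all 12536 genes tested. The count of mitoribosomal genes that fell was 2 with DESeq2, 0 with limma-voom and 12 with limma-voom and library quality weights. The groups did not overlap for 2 higher genes, Mrpl4 and Mrpl44, and for 6 lower genes, which is 2.60% and 7.79% of the genes against 12.6% and 14.1% of all genes. The median log2 fold change was -0.12 over the 77 genes and 0.02 over all genes. Over the mitoribosomal genes it was 0.28 when TEPP-46 replicates 4 and 5 were left out, which leaves a lone TEPP-46 library. It was 0.03 without replicate 4 alone, with 3 genes called higher and 12.7% of all genes called, and -0.39 without replicate 1, with 3 called lower and 14.6% of all genes called. The share of all genes called was 10.3% with all libraries. The median log2 fold change of the mitoribosomal genes was -0.19, -0.08 and -0.07 without resting replicates 1, 4 and 5, and -0.08 without TEPP-46 replicate 5.

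A further group of mitoribosomal genes with known functions did not pass the test in any comparison. Mrpl12 and Mrpl10, which form the stalk that contacts translation factors, had 55.6, 40.8 and 29.8 CPM (Mrpl12) in TEPP-46 cells, against 61.8, 69.6 and 62.5 CPM in control cells and 38.4, 54.1 and 54.1 CPM in resting cells. The control libraries of Mrpl12 were above both other groups, with log2 fold changes of -0.62 ± 0.26 for TEPP-46 over control (SE; edgeR adjusted p = 0.127) and 0.40 ± 0.26 for control over resting cells (SE; edgeR adjusted p = 0.259). Mrpl10 had 112, 68.9 and 74.1 CPM in TEPP-46 cells, 76.5, 71.5 and 88.0 CPM in control cells and 61.0, 80.3 and 73.8 CPM in resting cells, with all groups overlapping. The genes of the 3 Mrps18 paralogs, related to bacterial S18, had these point estimates. Mrps18a, whose product sits in the large subunit, had log2 fold changes of -0.17 ± 0.29 for TEPP-46 over control and -0.16 ± 0.29 for control over resting cells (SE). Mrps18b had -0.58 ± 0.26 and 0.20 ± 0.25, and Mrps18c had -0.23 ± 0.31 and 0.59 ± 0.31 for the same comparisons. Mrps18c was the paralog whose control libraries, at 28.2, 22.8 and 28.0 CPM, were all above its resting libraries, at 20.3, 16.4 and 15.8 CPM. None of these differences passed the threshold, and the paralogs were not tested against each other. Mrpl12, Mrpl10, Mrps18b and Mrps18c overlap an exon of another annotated gene, so part of their counts may be shared.

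Mrps27, a small-subunit protein with RNA-binding repeats, had 47.6, 18.9 and 31.7 CPM in TEPP-46 cells and 81.4, 61.7 and 50.2 CPM in control cells, without overlap (log2 fold change -0.97 ± 0.33 SE, edgeR adjusted p = 0.0681). Mrps30, a large-subunit protein despite its name, had 94.3, 87.4 and 84.4 CPM in TEPP-46 cells and 174, 118 and 123 CPM in control cells (log2 fold change -0.64 ± 0.20 SE, edgeR adjusted p = 0.0543). Both were lower in all 3 TEPP-46 libraries and stayed outside the threshold. Mrpl58, a peptidyl-tRNA hydrolase that frees stalled chains, had 99.3, 52.5 and 74.7 CPM in TEPP-46 cells, 61.8, 54.5 and 48.4 CPM in control cells and 59.7, 77.4 and 90.6 CPM in resting cells. Mrps12, the counterpart of the decoding-site protein S12, had 46.2, 34.0 and 37.2 CPM in TEPP-46 cells, 36.3, 28.6 and 31.8 CPM in control cells and 32.0, 45.4 and 50.2 CPM in resting cells. The groups of both genes overlapped in every comparison. Mrpl44, which carries a ribonuclease III-like fold, had 63.8, 40.3 and 45.6 CPM in TEPP-46 cells, 41.5, 38.4 and 41.8 CPM in control cells and 38.8, 34.3 and 32.0 CPM in resting cells. Mrpl41 had 23.9, 7.14 and 26.5 CPM in TEPP-46 cells, 20.4, 23.5 and 20.9 CPM in control cells and 27.2, 25.9 and 24.7 CPM in resting cells, so that TEPP-46 replicate 4 alone was below all other libraries. Mrps27, Mrps30, Mrpl58 and Mrpl44 overlap an exon of another annotated gene on the opposite strand, so part of their counts may be shared.

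The genes were also grouped by evolutionary origin, with the subunit taken from the protein's assignment and not from its symbol. Mrps36, assigned to another complex, is in none of these 4 classes. It rose on activation and fell with TEPP-46. Of 30 large-subunit proteins with a bacterial counterpart, 3 rose and 2 fell in control over resting cells, with a median log2 fold change of 0.26. Of 20 tested large-subunit proteins specific to mitochondria, 1 rose (Mrpl45) and 1 fell (Mrpl49), with a median of -0.04. Among 16 small-subunit proteins with a bacterial counterpart, Mrps10 and Mrps16 rose, with a median of 0.01. Among 10 that are specific to mitochondria no gene passed the edgeR threshold, and the median was 0.19. An unadjusted edgeR p below 0.05 was found for 2 of these 10, and for 5397 of all 12536 genes tested. Of all genes tested, 15.5% rose and 15.8% fell on activation, so the class counts are no result about the classes. In TEPP-46 over control cells the medians of these classes were -0.28, -0.19, -0.18 and -0.26 in the same order. All 4 medians of the TEPP-46 comparison were below the all-gene median of 0.04. They were not computed without TEPP-46 replicates 4 and 5, where the median over the 77 genes was 0.11.

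Promoter windows of the RefSeq table (GRCm38.p6, 250 bases before to 50 bases after the start) were found for 69 of the 78 genes and searched on both strands for letters bound by factors named for mitochondrial biogenesis and growth. ACTTCCGG, an ETS-type motif of the GABP factor, occurred in 12 of the 69 genes (17.4%), in 10.1% of the 9013 tested genes with a window and in 4.31% of all 27025 genes in the table. GCGCATGC, an NRF1-type motif, occurred in 8 (11.6%), against 6.26% and 3.05%. AAGATGGC, a YY1-type motif, occurred in 12 (17.4%), against 5.60% of tested genes and 3.19% of all. At least 1 of these 3 motifs was present in 29 of the 69 genes (42.0%), against 20.3% of the tested genes. CACGTG, the E-box bound by MYC, occurred in 5 (7.25%), against 12.1% and 8.09%, and CCAAT in 27 (39.1%), against 42.7% and 41.1%. Matches were counted once per gene, also where matches overlapped. Only exact matches were counted, so a window without one may hold a variant. A match describes letters in the window and shows no binding.

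**Figure D5:**
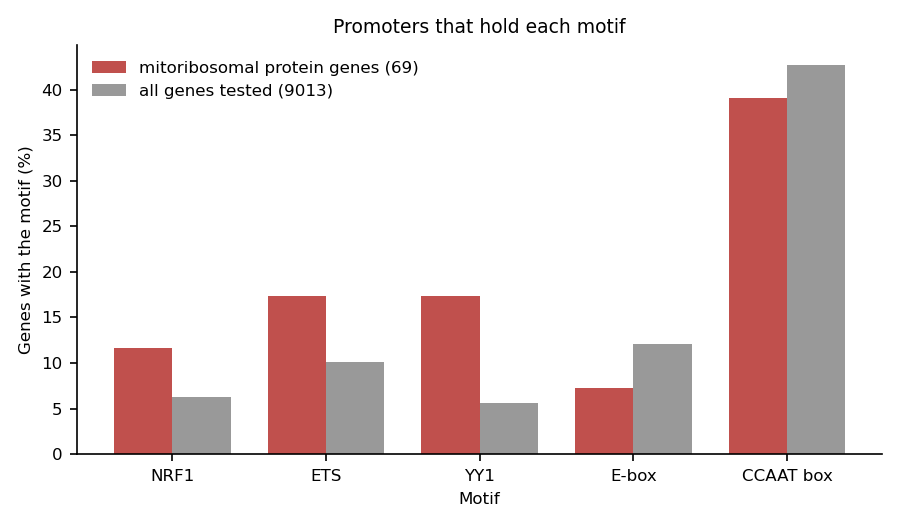
Percent of genes whose promoter window holds each motif on either strand, for the 69 mitoribosomal protein genes and the 9013 tested genes with a window. The YY1-type motif is present in 17.4% of mitoribosomal genes and 5.60% of tested genes, and the E-box in 7.25% and 12.1%.

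The windows of Mrpl18, Mrpl42 and Mrpl3 are shown as examples of the calls, with ACTTCCGG, AAGATGGC and CCAAT matches or their reverse complements in capitals. Mrpl18 (chr17:12916042-12916341, reverse strand) had the highest level per kilobase and rose on activation, Mrpl42 (chr10:95501900-95502199, reverse strand) fell with TEPP-46, and Mrpl3 (chr9:105053018-105053317, forward strand) fell on activation. The Mrpl18 window holds an ETS-type and a CCAAT match, the Mrpl42 window a CCAAT and a YY1-type match, and the Mrpl3 window 3 CCAAT matches and an ETS-type match. The RefSeq start used here differs from the GENCODE 5′ end by 254 bases for Mrpl18, 9 for Mrpl42 and 29 for Mrpl3, and by 0 for Mrpl45.
Mrpl18: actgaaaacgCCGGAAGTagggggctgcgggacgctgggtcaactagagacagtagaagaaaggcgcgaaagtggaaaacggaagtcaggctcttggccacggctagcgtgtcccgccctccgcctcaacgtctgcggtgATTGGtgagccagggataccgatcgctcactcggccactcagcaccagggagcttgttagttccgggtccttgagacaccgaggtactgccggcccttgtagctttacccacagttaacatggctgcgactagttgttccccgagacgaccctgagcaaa
Mrpl42: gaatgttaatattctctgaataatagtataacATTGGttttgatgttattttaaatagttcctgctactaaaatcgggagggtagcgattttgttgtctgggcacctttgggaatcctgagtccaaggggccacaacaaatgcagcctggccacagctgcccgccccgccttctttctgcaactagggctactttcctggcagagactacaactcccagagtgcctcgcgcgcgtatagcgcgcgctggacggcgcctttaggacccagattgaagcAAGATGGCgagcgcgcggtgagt
Mrpl3: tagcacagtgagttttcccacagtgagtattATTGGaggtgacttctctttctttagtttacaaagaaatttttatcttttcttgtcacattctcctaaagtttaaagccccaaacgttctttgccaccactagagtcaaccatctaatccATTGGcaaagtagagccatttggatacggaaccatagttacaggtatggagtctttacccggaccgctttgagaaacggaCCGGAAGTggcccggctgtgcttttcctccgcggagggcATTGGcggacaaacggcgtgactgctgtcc

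The YY1-type motif often lay just after the start. In 8 of the 69 genes (11.6%) AAGATGGC lay on the sense strand downstream of the start, from 12 to 37 bases after it, against 2.64% of tested genes and 1.04% of all genes in the table. In 6 of the 8 the ATG inside the motif is an annotated start codon. The sites are shown with up to 10 bases on either side and the motif in capitals, because the shared letters and position can be read from them directly. Their coordinates are Mrpl35 at chr6:71823744-71823771 (reverse strand), Mrpl37 at chr4:107066823-107066850 (reverse strand), Mrpl42 at chr10:95501905-95501932 (reverse strand), Mrpl49 at chr19:6057722-6057749 (reverse strand), Mrps18a at chr17:46111005-46111032 (forward strand), Mrps24 at chr11:5707652-5707675 (reverse strand), Mrps27 at chr13:99344790-99344817 (forward strand) and Mrps7 at chr11:115604148-115604175 (forward strand). Among the called genes, Mrpl42 and Mrpl49 carry the motif there, of which Mrpl42 fell with TEPP-46 and Mrpl49 fell on activation.
Mrpl35: ggcaggctgcAAGATGGCggcttccatc
Mrpl37: tgcacgggcaAAGATGGCggcgtccagg
Mrpl42: agattgaagcAAGATGGCgagcgcgcgg
Mrpl49: ttgaggcgccAAGATGGCagcagcggtg
Mrps18a: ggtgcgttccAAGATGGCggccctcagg
Mrps24: gcgccggcccAAGATGGCgtggtc
Mrps27: ggtgcgctccAAGATGGCggctcccatg
Mrps7: gacagcggccAAGATGGCtgcccccgcg

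The rest of the mitochondrial translation pathway was described from lists written with earlier results of these data known. The leave-out fits were summarised for the mitoribosomal genes alone. Among 5 mitoribosomal subunits whose symbols do not start with Mrp, Gadd45gip1, a large-subunit protein, had 114, 71.4 and 88.0 CPM in TEPP-46 cells, 174, 167 and 163 CPM in control cells and 89.1, 98.2 and 103 CPM in resting cells. It fell with TEPP-46 (log2 fold change -0.88 ± 0.21 SE, edgeR adjusted p = 0.0211) and rose on activation (log2 fold change 0.79 ± 0.21 SE, edgeR adjusted p = 0.0158), with the control libraries above all others. Ptcd3, a small-subunit protein, was lower in TEPP-46 than in resting cells (log2 fold change -0.79 ± 0.21 SE, edgeR adjusted p = 0.0385). Of 16 translation factors and messenger-binding proteins, Lrpprc, which stabilises mitochondrial messenger RNAs, fell on activation (-0.61 ± 0.18 SE on the log2 scale, edgeR adjusted p = 0.0262) and was lower in TEPP-46 than in resting cells (-0.83 ± 0.18 SE, edgeR adjusted p = 0.0197). Between TEPP-46 and control cells no gene of that list passed the edgeR threshold. An unadjusted edgeR p below 0.05 was found for 2 of the 16, and for 4236 of all 12536 genes tested.

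Of 24 genes for ribosome assembly and ribosomal RNA maturation, 1 rose and 3 fell on activation. Malsu1, an assembly factor of the large subunit, rose (log2 fold change 1.13 ± 0.30 SE, edgeR adjusted p = 0.0159), while the GTPase Mtg2 (-1.68 ± 0.36 SE, edgeR adjusted p = 0.00687), Mettl17 (-1.24 ± 0.23 SE, edgeR adjusted p = 0.00391) and Mterf3 (-0.84 ± 0.23 SE, edgeR adjusted p = 0.0198) fell. In TEPP-46 over control cells Mrm2, a methyltransferase of the large ribosomal RNA, rose (1.71 ± 0.43 SE, edgeR adjusted p = 0.0254) and Rcc1l fell (-0.96 ± 0.27 SE, edgeR adjusted p = 0.037). The counts of 1 rise and 3 falls, and of 1 rise and 1 fall, stand beside shares of 15.5% and 15.8% of all genes on activation and 9.72% and 6.43% with TEPP-46, so they are no result about assembly genes as a group. The list had median log2 fold changes of -0.14 for control over resting cells and 0.02 for TEPP-46 over control cells. Of 10 genes for transcription and replication of mitochondrial DNA, the polymerases Polg and Polrmt fell on activation (-0.95 ± 0.22 SE, edgeR adjusted p = 0.00893, and -0.80 ± 0.24 SE, edgeR adjusted p = 0.031). Of 9 tested mitochondrially encoded RNAs, mt-Co1 rose on activation (1.75 ± 0.38 SE, edgeR adjusted p = 0.00695) and mt-Cytb, mt-Nd2 and mt-Nd4 fell, with log2 fold changes of -1.32, -1.32 and -1.0, while mt-Nd4 rose with TEPP-46 (1.07 ± 0.27 SE, edgeR adjusted p = 0.0283).

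Among 9 tested regulators named for mitochondrial biogenesis, Myc, a transcription factor of growth, had 291, 70.6 and 84.8 CPM in TEPP-46 cells, 977, 523 and 512 CPM in control cells and 59.9, 299 and 188 CPM in resting cells. Pprc1, a coactivator of the PGC-1 family, had 33.3, 60.1 and 39.1 CPM in TEPP-46 cells, 114, 119 and 99.8 CPM in control cells and 48.7, 84.5 and 58.2 CPM in resting cells. Both had every control library above all libraries of the other groups. Myc fell with TEPP-46 by 2.17 on the log2 scale (edgeR adjusted p = 0.0455) and rose on activation by 1.88 (edgeR adjusted p = 0.0464). Pprc1 fell with TEPP-46 by 1.34 (edgeR adjusted p = 0.0137) and rose on activation by 0.80 (edgeR adjusted p = 0.0485). Nrf1, the nuclear respiratory factor, fell on activation by 0.68 (edgeR adjusted p = 0.0391), and Gabpa, Gabpb1, Yy1, Esrra, Tfam and Ppargc1b passed the threshold in no comparison. The cytosolic ribosomal protein genes were taken as the nearest other gene set. Their median log2 fold change was -0.32 for TEPP-46 over control cells, with 5 of 77 above 0 and 72 below. By edgeR 0 rose and 1 fell, against 9.72% and 6.43% of all genes. For control over resting cells the median was 0.46, with 68 above 0 and 9 below. By edgeR 3 rose and 0 fell, against 15.5% and 15.8% of all genes. In that comparison the groups did not overlap for 41 higher genes and 1 lower gene, against 3656 and 3763 of all 12536 genes tested. The summed level of the cytosolic genes was 35415, 8445 and 17505 CPM in TEPP-46 replicates 1, 4 and 5. Replicate 1 lay above and replicates 4 and 5 below the control range of 22448 to 29068 CPM. The difference between the cytosolic and the mitochondrial gene set was not tested.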

How the data were processed

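The authors deposited a single table of raw read counts per gene and library, whole numbers without normalization, per the file headers. The submitters' processing notes name GRCm38 as the build, and DESeq2; no source used here gives the aligner, the counting program or the strand setting. Per the labels' protocols, libraries were made with a low-input RNA kit and sequenced on a HiSeq instrument. Identifiers were paired with GENCODE M21 symbols for 47310 of 47937 and left unpaired for 627; coordinates are GRCm38, counted from 1. Of 78 mitochondrial ribosomal protein genes, 33 overlap an exon of another gene, 28 of them on the opposite strand.

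Genes were filtered with filterByExpr (minimum count 10, minimum total 15), leaving 12536. All 9 libraries were fitted by group with glmQLFit and glmQLFTest of edgeR 4.0.16 (R 4.3.3) on TMM-scaled totals, with two-sided tests and Benjamini-Hochberg adjustment over all genes at 0.05. The fit was checked on simulated counts. CPM use the TMM-scaled totals. A floor of 3 counts equals 0.596 to 1.25 CPM and covers counting error only. Alternatives were DESeq2 1.42.0, limma-voom (limma 3.58.1) without and with library quality weights, other scaling factors and filters, the replicate number as a block, only the groups compared, and leaving out each library. Leaving out TEPP-46 replicates 4 and 5 together was chosen after seeing the data.

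The genes and lists were chosen with earlier results of these data known. Named in every comparison were Mrpl10, Mrpl12, Mrpl41, Mrpl44, Mrpl58, Mrps12, Mrps18a, Mrps18b, Mrps18c, Mrps27, Mrps30 and Mrps36; further, up to 8 rising and 8 falling genes past the threshold, the 3 highest and 3 lowest per kilobase, untested genes, up to 4 genes a pathway list, and all regulators. Sequences are from RefSeq (GRCm38.p6).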

Additional observations from a re-analysis of the deposited data

How the results depend on the processing

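The number of mitoribosomal genes past the threshold changed with the test, the filter, the scaling and the libraries used. The share of all genes called, given in parentheses, changed with it. In control over resting cells the count was 10 in the reported fit (31.2%), 30 with limma-voom and library quality weights (58.4%), 6 without a filter (18.2%), 23 with only the groups compared (47.2%) and 1 to 17 with 1 library left out (17.9% to 40.3%). The median log2 fold change there was 0.24 with total counts only and 0.10 to 0.19 with 1 library left out. Total counts shifted the median of all genes by 0.11 in that comparison and by -0.13 in TEPP-46 over control cells, and the median of the mitoribosomal genes relative to all genes was 0.17 in the reported fit and 0.17 with total counts. In TEPP-46 over control cells the count was 5 in the reported fit (16.2%), 11 with DESeq2 (24.4%), 26 with quality weights (49.2%), 11 with total counts (16.8%), 3 with only the groups compared (12.2%) and 0 to 22 with 1 library left out (3.05% to 33.9%). In TEPP-46 over resting cells it was 1 in the reported fit (10.3%), 5 with DESeq2 (16.7%), 0 with limma-voom (8.68%), 15 with quality weights (26.8%), 2 without a filter (7.47%), 0 with only the groups compared (3.39%) and 0 to 3 with 1 library left out (3.3% to 14.6%). The causes were not tested. The quality weights were 0.218 and 0.255 for TEPP-46 replicates 1 and 4 and 0.274 for resting replicate 1, and 1.18 to 2.95 for the other libraries.

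Without TEPP-46 replicates 4 and 5, which leaves a lone TEPP-46 library assumed to vary like the other groups, the counts were 0 in TEPP-46 over control (4.04%), 22 in control over resting (45.9%) and 7 in TEPP-46 over resting cells (17.7%), and the medians of the TEPP-46 comparisons were 0.11 and 0.28. In TEPP-46 over control cells, 18 of the 77 genes had a log2 fold change above 0 in the reported fit, 36 without TEPP-46 replicate 4 and 44 without both. Single genes were followed through the alternatives only where they were named or called in this comparison (16 genes), and 4 of these turned sign, none of them past the threshold in the reported fit. Mrpl10 was 0.11 in the reported fit, -0.064 with quality weights, -0.029 with total counts and -0.15 to 0.24 with 1 library left out. Mrpl41 was -0.16, and 0.13 with quality weights, 0.16 without both libraries and -0.45 to 0.22 with 1 left out. Mrps18a was -0.17, and 0.30 without both and -0.49 to 0.062 with 1 left out. Mrps18c was -0.23, and 0.26 without both and -0.58 to 5e-04 with 1 left out.

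With the replicate number as a replicate block the counts were 4 for control over resting cells (26.6%), 2 for TEPP-46 over control (11.0%) and 0 for TEPP-46 over resting cells (5.62%). Deviations of the 9 same-numbered pairs of libraries correlated between -0.12 and 0.09, and those of the 18 other pairs between -0.11 and 0.12. With 3 libraries a group, these deviations cannot show whether same-numbered libraries share an origin. The gene with the fewest counts, Mrpl53, could not be compared at this depth.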
